A study of Mus musculus with 6 samples.

Results

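The genes described here store, carry and convert vitamin A in mouse liver. They are 8 genes, chosen by name from the 21899 genes in the deposited tables, and all 8 were found once and passed the filter on low counts. The members are Lrat, which stores retinol as ester, Rbp4, which carries it in blood, the retinol and retinal converting enzymes Dhrs3, Rdh10, Rdh11 and Rdh16, the retinal oxidising Aldh1a1, and Cyp26a1, which clears retinoic acid. Liver RNA was sequenced from 6 C57BL/6 mice, an inbred laboratory strain, 3 given CSAA feed (the control diet) and 3 given CDAA feed. CDAA is an amino acid-defined diet without choline, and CSAA its counterpart with choline added. Mice were 6 weeks old at the start and had 1 week to acclimatise. The CDAA mice then passed through mixed feed for 1 week, and livers were taken at week 6 after that. No transgene, knockout or drug is given for either group, and each library is bulk liver RNA in which all cell types are mixed.

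Vitamin A enters the liver as retinyl ester, and most of it is kept in lipid droplets of hepatic stellate cells, where lecithin retinol acyltransferase, the product of Lrat, re-forms the ester. Retinol released from this store leaves hepatocytes bound to retinol-binding protein, the product of Rbp4, together with transthyretin. Short-chain dehydrogenases interconvert retinol and retinal, retinal dehydrogenases make retinoic acid from retinal irreversibly, and enzymes of the Cyp26 family hydroxylate retinoic acid for removal. Retinoic acid acts through the nuclear receptors RAR and RXR, and Cyp26a1 itself is a well-known target of these receptors.

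Promoter sequences are shown for the 2 members that changed and for Cyp26a1, because the last is known to respond to retinoic acid through its promoter. They come from RefSeq on build GRCm38.p6, each with 250 bases before the start site and 50 from it on, printed 5′ to 3′ on the strand of the gene. Of the 8 members 7 had an entry, with 12 windows in all, and Rdh10 had none. Rdh11 had 2 windows, and the one printed is the one with motif matches. The other, chr12:79191806-79192105, held no match to the motifs listed next. Capitals mark matches, on either strand, to the motifs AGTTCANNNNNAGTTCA (a direct repeat of the receptor half-site with a 5-base gap), the single half-site in its form AGGTCA or in the form AGTTCA, the core promoter motif TATAAA, and the CCAAT box.
Cyp26a1, chr19:37697558-37697857, plus strand: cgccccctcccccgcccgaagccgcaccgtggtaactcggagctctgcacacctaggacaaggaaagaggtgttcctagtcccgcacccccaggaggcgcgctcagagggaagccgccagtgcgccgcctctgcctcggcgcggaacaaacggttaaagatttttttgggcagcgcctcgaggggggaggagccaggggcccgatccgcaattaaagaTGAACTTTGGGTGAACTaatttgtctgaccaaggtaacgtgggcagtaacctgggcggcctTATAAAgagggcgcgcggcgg
Lrat, chr3:82903925-82904224, minus strand: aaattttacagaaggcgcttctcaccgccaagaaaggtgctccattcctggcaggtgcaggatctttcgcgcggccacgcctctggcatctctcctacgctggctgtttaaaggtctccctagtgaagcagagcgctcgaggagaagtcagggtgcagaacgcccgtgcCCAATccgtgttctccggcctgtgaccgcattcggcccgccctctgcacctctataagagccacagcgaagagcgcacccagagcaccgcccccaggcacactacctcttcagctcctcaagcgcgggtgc
Rdh11, chr12:79190912-79191211, minus strand: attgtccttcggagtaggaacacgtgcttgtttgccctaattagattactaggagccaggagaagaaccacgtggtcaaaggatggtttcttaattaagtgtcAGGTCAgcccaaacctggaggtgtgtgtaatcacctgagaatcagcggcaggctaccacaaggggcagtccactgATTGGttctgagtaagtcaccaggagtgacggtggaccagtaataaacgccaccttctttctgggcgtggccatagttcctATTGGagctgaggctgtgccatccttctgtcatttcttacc

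The paired half-site with the 5-base gap lay in the Cyp26a1 window on the opposite strand, where it reads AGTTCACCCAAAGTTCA, from -32 to -16 before the start site. It was found in 8 of the 32851 promoter windows in the RefSeq table, or 0.0244%, and among the 7 members with an entry in Cyp26a1 alone. The same repeat built from the other half-site, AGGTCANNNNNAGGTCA, was in 3 windows (0.00913%), none of them of a member. AGTTCA, which this repeat contains, was found in 14.0% of all windows and among the members again in Cyp26a1 alone. The half-site AGGTCA was in 16.3% of all windows and, among members, in 1 of the 2 Rdh11 windows and in Rdh16. TATAAA was in 13.6% of all windows. Among members it lay in Rbp4 from -28 to -23, in Rdh16 from -82 to -77 and in Cyp26a1 from 30 to 35, past the listed start site. CCAAT was in 37.4% of all windows (Lrat, Rbp4, Dhrs3, Rdh11 and Aldh1a1 among members). A match describes letters in a window and is not a measured binding site.

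The libraries held 14580676 to 17367173 reads over genes, and levels below are read counts put on one library size (CPM), with TMM factors of 0.883 to 1.17 applied to the library sizes, unless said to be per kilobase. The 12 hepatocyte markers, Alb (serum albumin) among them, summed to 74368 to 93826 CPM in CSAA and 105912 to 118592 CPM in CDAA. CDAA replicate 1 stood apart in holding RNA of other tissues. Its 8 pancreatic acinar markers summed to 1573 CPM against at most 7.23 CPM elsewhere, its 4 striated muscle markers to 117.3 CPM against at most 0.160 CPM, and its 5 adipocyte markers to 12.6 CPM against at most 2.59 CPM. CDAA replicate 3 stood apart on the second principal component (-35.6, against 0.51 to 20.4 in the other libraries). Fold changes of Lrat, Rbp4, Rdh11, Rdh16 and Cyp26a1 are therefore also given without each of these 2 libraries. The 9 macrophage markers summed to 1074 to 1594 CPM in CSAA and 482.0 to 641.2 CPM in CDAA. The 6 myofibroblast markers summed to 379.1 to 620.0 and 103.7 to 229.2 CPM, so both sums were lower in the libraries labelled CDAA. Of 5 tested myofibroblast markers 4 fell, beside 10.5% of all tested genes. Col3a1 and Col1a1 had the highest CSAA means of this list, 328.9 ± 76.0 and 126.1 ± 41.6 CPM. In CDAA they were at 89.7 ± 38.9 and 26.3 ± 10.6 CPM (log2 -1.88 and -2.26, edgeR adjusted p = 0.0071 and 0.00483). Acta2 had a positive estimate with overlapping groups (15.3 ± 6.61 and 28.4 ± 23.0 CPM, log2 0.89, edgeR adjusted p = 0.343). Tagln had at most 5 reads in any library and was not tested. No transcript was used that marks the feed itself, so the diet labels were taken as given and not checked, and every direction below rests on them. In bulk liver, fewer cells of a type and less RNA per cell cannot be told apart.

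Of the 8 members, Rdh11 rose and Lrat fell in CDAA, and the other 6 did not pass the test. The test was edgeR's quasi-likelihood test with p-values adjusted by the Benjamini-Hochberg method over all 12845 genes tested, with 0.05 as the threshold for a call. Across all tested genes 14.8% passed, 4.25% as higher and 10.5% as lower, so 1 of 8 each way does not set the members apart from the table as a whole. The groups did not overlap for 4 members, with CDAA above for Rbp4, Rdh11 and Rdh16 and below for Lrat, where 36.1% of all tested genes had no overlap, 15.6% with CDAA above and 20.4% with CDAA below. The median log2 fold change of the members was 0.22, beside 0.00 over all tested genes.

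**Figure D1:**
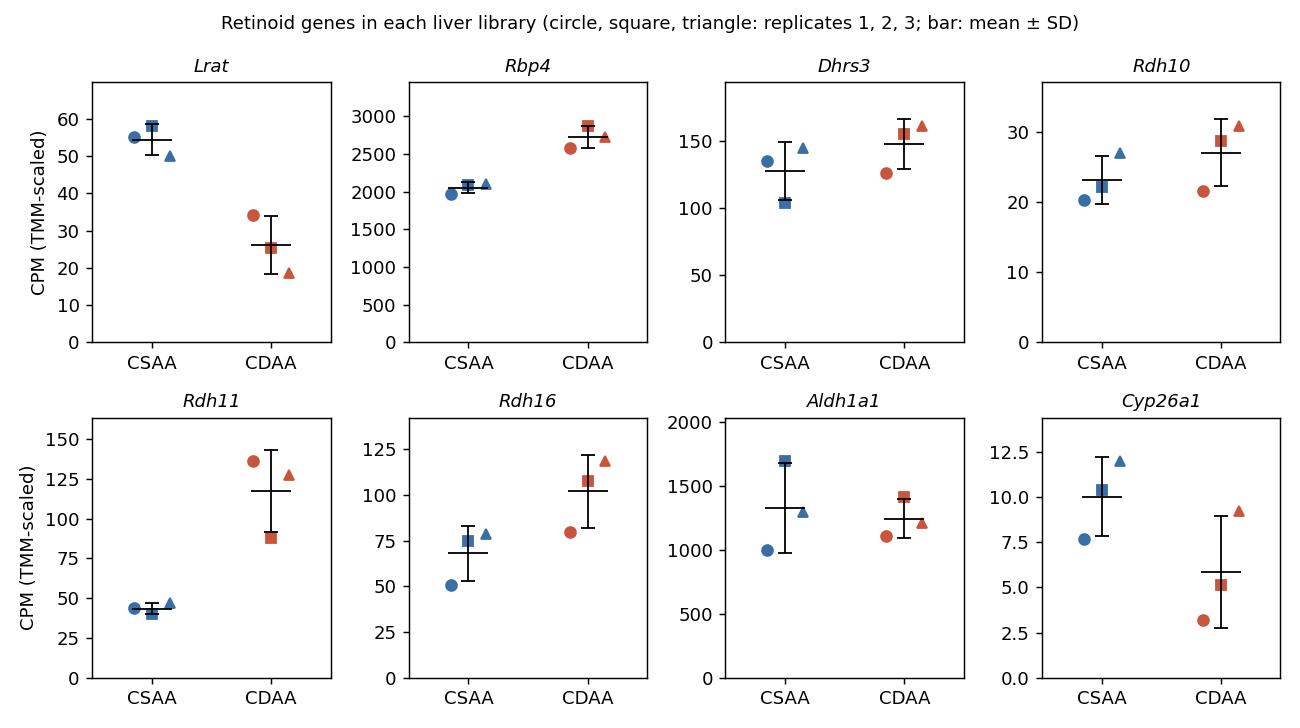
Level of each of the 8 retinoid genes in each liver library, in CPM on TMM-scaled library sizes, with a separate linear axis from 0 for each gene. Points are single libraries (3 CSAA in blue, 3 CDAA in red) and bars the mean ± SD. Lrat lies lower and Rdh11, Rbp4 and Rdh16 lie higher in every CDAA library, and the other 4 genes overlap between diets.

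Lrat, the esterifying enzyme of the vitamin A store, was at 55.1, 58.2 and 49.96 CPM in CSAA replicates 1 to 3 and at 34.2, 25.4 and 18.7 CPM in CDAA replicates 1 to 3. The highest CDAA library lay below the lowest CSAA library. Mean levels were 54.4 ± 4.14 and 26.1 ± 7.76 CPM (SD, n = 3 each), 2.09-fold lower in CDAA, with a log2 fold change of -1.06 ± 0.20 (SE, 95% interval -1.52 to -0.60, edgeR adjusted p = 0.0132). The spread within CDAA was the wider of the groups. Without CDAA replicate 1 the log2 fold change was -1.30 (edgeR adjusted p = 0.00831) and without CDAA replicate 3 it was -0.87 (edgeR adjusted p = 0.0103). Lrat did not pass without CSAA replicate 1, CSAA replicate 2 or CDAA replicate 2, with log2 fold changes of -1.03, -0.9995 and -1.04 and edgeR adjusted p of 0.0593, 0.0534 and 0.0508. In the files Lrat (ENSMUSG00000028003) lies on chromosome 3 from 82799886 to 82811280 on the minus strand. The headers name no build, so these positions are not comparable with the promoter coordinates above.

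Lrat is made in liver mainly by stellate cells, and markers of these cells were lower in part. Of 11 stellate markers 3 fell and 0 rose, where 10.5% of all tested genes fell and 4.25% rose. The summed level of the 11 markers was 370.0 to 422.8 CPM in CSAA and 288.5 to 365.2 CPM in CDAA. Pdgfrb, a receptor for platelet-derived growth factor, fell by 1.29 ± 0.20 on the log2 scale (edgeR adjusted p = 0.00589), and Ngfr, the low-affinity nerve growth factor receptor, fell by 1.31 ± 0.22 (edgeR adjusted p = 0.00835). Cygb, cytoglobin, fell by 1.12 ± 0.29 (edgeR adjusted p = 0.0388) and was named after its value was seen. Reln, a secreted glycoprotein, ranged from 127.2 to 155.8 CPM in CSAA and from 83.6 to 124.0 CPM in CDAA (log2 -0.44 ± 0.16, edgeR adjusted p = 0.0971), while Ecm1 missed the threshold with a positive estimate (log2 0.28 ± 0.13, edgeR adjusted p = 0.187). The median over the 11 markers was -0.49.

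Relative to the summed level of the 11 stellate markers, Lrat was at 0.132, 0.138 and 0.135 in CSAA replicates 1 to 3 and at 0.0964, 0.0696 and 0.0648 in CDAA replicates 1 to 3. The ratio was lower in all 3 CDAA libraries, with means of 0.135 ± 0.00300 and 0.0769 ± 0.0170 (SD over 3 libraries each). An exact permutation test, two-sided, gave p = 0.1, which is the lowest value that 3 against 3 libraries can reach. On the log2 scale the ratio of the means was -0.81, and -0.70 to -1.003 with any 1 library left out. This value depended on which markers stood for the cells. Reln and Ecm1 had the highest means of the 11, at 143.6 and 106.6 CPM in CSAA and 105.6 and 129.2 CPM in CDAA. The estimates of Ngfr, Pdgfrb and Cygb (log2 -1.31, -1.29 and -1.12) lay below that of Lrat (-1.06). The other 8 markers had smaller falls or positive estimates. No ratio of Lrat to the 3 that fell was computed. Without Hgf and Ecm1, genes with a broader range of sources, the log2 ratio was -0.55, and relative to Des alone it was -1.06. Des, the intermediate filament desmin, is also a muscle protein and was at 21.4 CPM in CDAA replicate 1, which held muscle RNA, against 4.27 to 11.1 CPM in the other libraries, and the part of that RNA in the Des ratio was not tested.

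**Figure D2:**
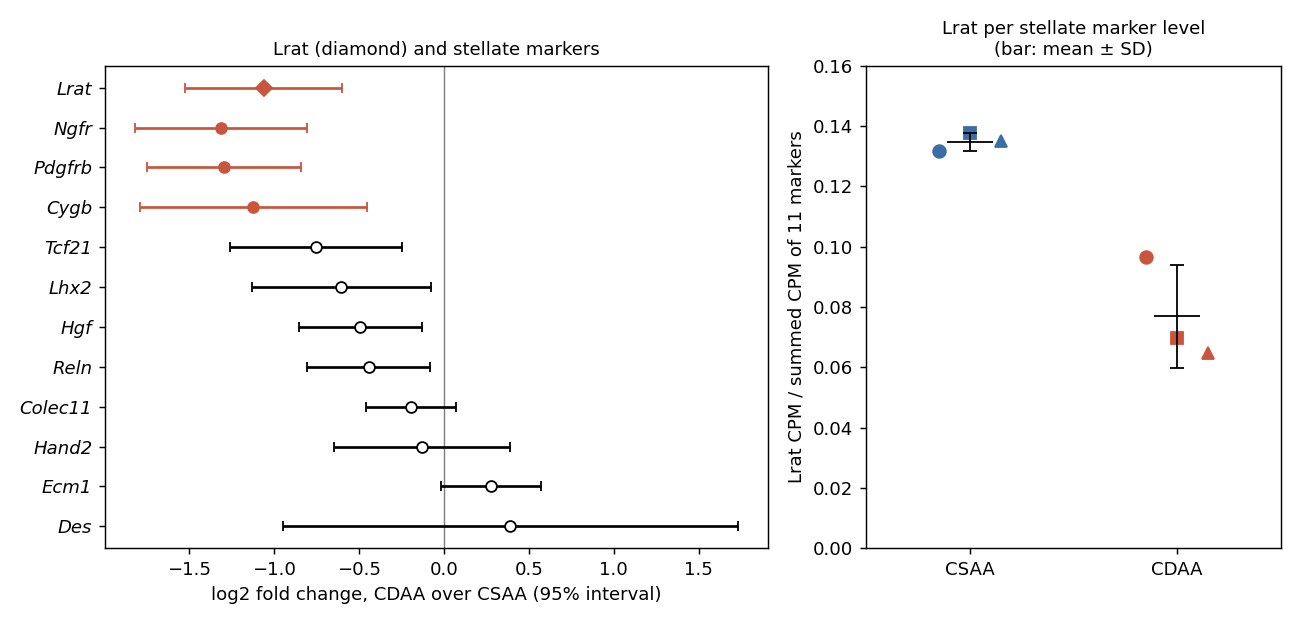
Left, log2 fold change (CDAA over CSAA, with its 95% interval) of Lrat as a diamond and of 11 stellate cell markers as circles, filled in red where the adjusted p was under 0.05. Right, Lrat CPM over the summed CPM of the 11 markers in each library, with mean ± SD, where the 3 CSAA libraries sit between 0.132 and 0.138 and the 3 CDAA libraries between 0.0648 and 0.0964.

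Rbp4, the plasma retinol carrier, was by far the most abundant member. It was at 1968, 2090 and 2104 CPM in CSAA replicates 1 to 3 and at 2580, 2875 and 2725 CPM in CDAA replicates 1 to 3. All CDAA libraries lay above all CSAA libraries, with means of 2054 ± 75.0 and 2727 ± 147.8 CPM (SD, n = 3 each). The log2 fold change was 0.41 ± 0.13 (95% interval 0.10 to 0.72) and did not pass (edgeR adjusted p = 0.0798). DESeq2 called it (log2 0.44, adjusted p = 0.000183), while on library size only the log2 fold change was 0.13 (edgeR adjusted p = 0.446). Ttr, transthyretin, the partner of Rbp4 in plasma, averaged 2737 ± 332.3 and 3736 ± 373.3 CPM in CSAA and CDAA and likewise missed the threshold (n = 3 each, log2 0.45 ± 0.17, edgeR adjusted p = 0.109), while DESeq2 called it too (log2 0.48, adjusted p = 0.00723). Of 12 hepatocyte markers 1 rose, Cps1 of the urea cycle, and 0 fell, where 4.25% of all tested genes rose and 10.5% fell. The median log2 fold change of these markers was 0.44 on the TMM scale, and the part of this in Rbp4 was not tested. Fat cells also make Rbp4, and adipocyte markers were detected in CDAA replicates 1 and 2 (Adipoq at 2.97 and 0.519 CPM). The part of this RNA in the Rbp4 level was not tested. Without CDAA replicate 1 the log2 fold change of Rbp4 was 0.45 (edgeR adjusted p = 0.134), and without CDAA replicate 3 it was 0.41 (edgeR adjusted p = 0.0970). Rbp4 (ENSMUSG00000024990) lies on chromosome 19 from 38105077 to 38113729, minus strand.

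Of the 4 short-chain dehydrogenases Rdh11 alone passed. Rdh11, a microsomal enzyme that reduces retinal to retinol with NADPH, was at 43.7, 39.7 and 46.7 CPM in CSAA replicates 1 to 3 and at 136.1, 87.7 and 127.4 CPM in CDAA replicates 1 to 3. Every CDAA library was well above the CSAA libraries, whose own values were close together. Mean levels were 43.4 ± 3.50 and 117.1 ± 25.8 CPM (SD, n = 3 each), 2.70-fold higher in CDAA, with a log2 fold change of 1.43 ± 0.17 (SE, 95% interval 1.04 to 1.82, edgeR adjusted p = 0.00236). Rdh11 passed in all 13 alternative analyses. Its log2 fold change was 1.31 without CDAA replicate 1, 1.37 without CDAA replicate 3, 1.61 without CDAA replicate 2 and 1.16 on library size only. Rdh11 (ENSMUSG00000066441) lies on chromosome 12 from 79221111 to 79239067, minus strand.

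Rdh16, a microsomal retinol and steroid dehydrogenase, was at 50.6, 74.9 and 78.5 CPM in CSAA replicates 1 to 3 and at 79.9, 107.5 and 118.5 CPM in CDAA replicates 1 to 3. The groups did not overlap, but CSAA replicate 3 and CDAA replicate 1 lay close together. The log2 fold change was 0.59 ± 0.20 (95% interval 0.12 to 1.05) and did not pass (edgeR adjusted p = 0.0883), while DESeq2 called it (log2 0.61, adjusted p = 0.0298). It was 0.74 without CDAA replicate 1 and 0.47 without CDAA replicate 3 (edgeR adjusted p = 0.0573 and 0.172). Rdh16 sits in a cluster of similar genes, and 14.0% of the 50-base windows in its GENCODE M21 transcripts occur in transcripts of another gene, foremost Rdh9, Rdh18-ps, Rdh16f1 and Rdh19, so its count is uncertain. In Aldh1a1 this share was 3.06%, all of it with Aldh1a7, and in the other 6 members it was 0%. Rdh16 (ENSMUSG00000069456) lies on chromosome 10 from 127637021 to 127682434, plus strand.

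Rdh10 and Dhrs3 form an opposed pair, the former oxidising retinol to retinal and the latter reducing retinal to retinol. Rdh10 was at 20.3, 22.1 and 26.9 CPM in CSAA replicates 1 to 3 and at 21.6, 28.6 and 30.9 CPM in CDAA replicates 1 to 3. Its groups overlapped (log2 0.23 ± 0.17, 95% interval -0.16 to 0.61, edgeR adjusted p = 0.403). Dhrs3 was at 134.7, 103.5 and 144.9 CPM in CSAA replicates 1 to 3 and at 126.2, 155.4 and 161.3 CPM in CDAA replicates 1 to 3, and its groups overlapped too (log2 0.21 ± 0.15, 95% interval -0.15 to 0.56, edgeR adjusted p = 0.405). On library size only both estimates turned slightly negative, -0.0475 and -0.0711. The intervals reach 0.61 and 0.56 on the log2 scale, so neither gene is shown to be equal between diets. Rdh10 (ENSMUSG00000025921) lies on chromosome 1 from 16175998 to 16203958 and Dhrs3 (ENSMUSG00000066026) on chromosome 4 from 144619397 to 144654779, both on the plus strand.

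Aldh1a1, a cytosolic retinal dehydrogenase that makes retinoic acid, was at 999, 1698 and 1295 CPM in CSAA replicates 1 to 3 and at 1111, 1417 and 1212 CPM in CDAA replicates 1 to 3. The CDAA values all fell inside the range of the CSAA values. The log2 fold change was -0.09 ± 0.21 (95% interval -0.57 to 0.39, edgeR adjusted p = 0.801), and 0.13 without CSAA replicate 2, the highest library. Aldh1a1 (ENSMUSG00000053279) lies on chromosome 19 from 20470079 to 20620829, plus strand.

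Cyp26a1, which carries the paired half-site in its promoter and hydroxylates retinoic acid, had the largest standard error among the members. It was at 7.67, 10.4 and 12.0 CPM in CSAA replicates 1 to 3 and at 3.20, 5.11 and 9.24 CPM in CDAA replicates 1 to 3. CDAA replicates 1 and 2 lay below all CSAA libraries and CDAA replicate 3 lay among them. The log2 fold change was -0.77 ± 0.37 (95% interval -1.61 to 0.07) and did not pass (edgeR adjusted p = 0.199). Without CDAA replicate 3 it was -1.26 and passed (edgeR adjusted p = 0.0288), and without CDAA replicate 1 it was -0.47 and did not pass (edgeR adjusted p = 0.375). Cyp26a1 passed in 1 of the 6 analyses with 1 library left out. Cyp26b1, the related hydroxylase, was also highest in CDAA replicate 3 among the CDAA libraries. It was at 3.04, 3.26 and 18.3 CPM in CDAA replicates 1 to 3 against 19.3, 15.3 and 9.45 CPM in CSAA replicates 1 to 3 (log2 -0.84 ± 0.65, edgeR adjusted p = 0.425). Its log2 fold change was -2.22 without CDAA replicate 3 (edgeR adjusted p = 0.00613) and -0.45 without CDAA replicate 1 (edgeR adjusted p = 0.692). No other analysis with 1 library left out called Cyp26b1. What set CDAA replicate 3 apart was not tested. Cyp26a1 (ENSMUSG00000024987) lies on chromosome 19 from 37686246 to 37689984, plus strand, on the same chromosome as Rbp4 and Aldh1a1.

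**Figure D3:**
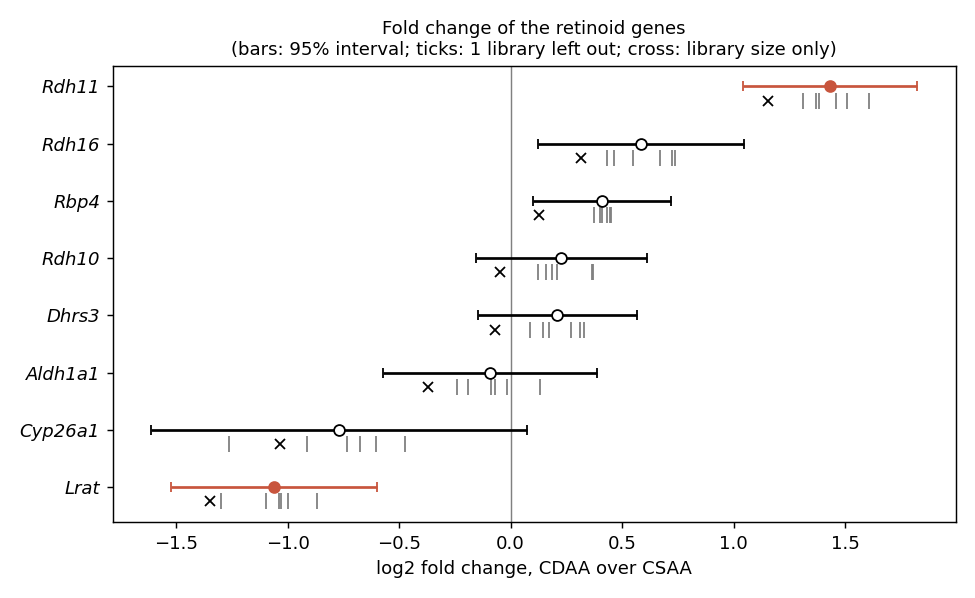
Log2 fold change (CDAA over CSAA) of the 8 retinoid genes, as circles with 95% intervals, filled in red where the edgeR adjusted p was under 0.05. Grey ticks are the values with 1 library left out, and crosses the values on library size only, which lie below the circles for all 8 genes. Rdh11 (1.43) and Lrat (-1.06) stand at the ends, and the ticks of Cyp26a1 spread from -1.26 to -0.47.

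Per kilobase of listed gene length the members spanned a wide range. In CSAA the mean levels, in CPM per kilobase, were 1529 ± 55.9 for Rbp4, 269.5 ± 71.1 for Aldh1a1, 43.6 ± 7.38 for Dhrs3, 12.6 ± 1.01 for Rdh11, 10.9 ± 2.44 for Rdh16, 10.2 ± 0.775 for Lrat, 5.56 ± 0.818 for Rdh10 and 5.05 ± 1.10 for Cyp26a1 (SD, n = 3). The libraries of Rdh11 and Rdh16, of Rdh16 and Lrat, and of Rdh10 and Cyp26a1 overlapped, so the order of these neighbours is not fixed. In CDAA the same levels were 2030 ± 110.1 for Rbp4, 252.6 ± 31.5 for Aldh1a1, 50.4 ± 6.42 for Dhrs3, 33.9 ± 7.47 for Rdh11, 16.4 ± 3.19 for Rdh16, 6.497 ± 1.16 for Rdh10, 4.88 ± 1.45 for Lrat and 2.95 ± 1.56 for Cyp26a1 (SD, n = 3). There Rdh11 no longer overlapped Rdh16, and Lrat lay below Rdh16 without overlap and overlapped Rdh10 and Cyp26a1.

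The genes whose levels ran most like each member over the 6 libraries were sought among tested genes averaging 10 CPM or more, by Pearson's r of log2(CPM + 1). These values describe 6 points in 2 groups that share the difference between diets, and many genes reach a high r in this way. For Lrat they were Scd2, Hsbp1 and Zfp746 (r = 0.993 to 0.997), and 250 of 8335 genes had an r above 0.9. For Rdh11 they were Zbtb5, Tardbp and Alg14 (r = 0.994 to 0.999, 387 genes above 0.9), and for Rbp4 they were Urod, Furin and Chuk (r = 0.996, 608 genes above 0.9). For Rdh16 they were Mrps34, Sema4a and Spr (r = 0.994 to 0.995, 258 genes above 0.9) and for Cyp26a1 Fyb2, Adgre4 and Mta1 (r = 0.986 to 0.992, 98 genes above 0.9). Dhrs3 was most like Rpl31, Llgl2 and Slc35b3 (r = 0.982 to 0.999, 42 genes above 0.9), Rdh10 most like Rnf25, Pskh1 and Depdc7 (r = 0.974 to 0.990, 59 genes above 0.9), and Aldh1a1 most like Retreg1, Ints7 and Iqsec2 (r = 0.980 to 0.987, 31 genes above 0.9).

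Among 48 further retinoid genes listed by role, 38 were tested, of which 6 rose and 2 fell, with a median log2 fold change of 0.17. Over all tested genes 4.25% rose and 10.5% fell, and these shares stand beside each count by role below. Without CDAA replicate 1 the counts were 3 and 1, without CDAA replicate 3 they were 6 and 3, and without CSAA replicate 1 they were 0 and 1. With CSAA replicate 2, CSAA replicate 3 or CDAA replicate 2 left out, 2, 3 and 2 genes rose and 1, 1 and 2 fell. Of carriers and uptake genes 2 were tested, Ttr and the retinol-binding protein receptor gene Stra6l, and neither passed. Stra6, the receptor of other tissues, had at most 2 reads in any library, and Crabp1, a retinoic acid-binding protein, had none, which allows up to 0.228 CPM in the shallowest library. Of 5 genes of ester formation and hydrolysis 2 rose and 0 fell. Ces1d, a carboxylesterase that also hydrolyses retinyl esters, rose from 246.2 ± 51.5 to 651.3 ± 216.0 CPM (n = 3 each, log2 1.40 ± 0.26, edgeR adjusted p = 0.0129). Pnpla3, a droplet lipase with retinyl ester activity in human stellate cells, rose from 2.39 ± 1.22 to 12.2 ± 7.80 CPM (n = 3 each, log2 2.35 ± 0.57, edgeR adjusted p = 0.0312). Ces1d did not pass without CSAA replicate 1 (edgeR adjusted p = 0.0532). The call of Pnpla3 was lost on leaving out CSAA replicate 1, CSAA replicate 3, CDAA replicate 1 or CDAA replicate 2 (edgeR adjusted p = 0.119, 0.0910, 0.0841 and 0.0788). Both genes were above the CSAA libraries in every CDAA library, Ces1d most in CDAA replicate 3 (867.7 CPM). Pnpla3 was at 19.9, 12.5 and 4.27 CPM in CDAA replicates 1 to 3, the last close to CSAA replicate 2 (3.79 CPM). Adipocyte markers summed to 12.6, 2.59 and 0.142 CPM in the same CDAA libraries, and the part of this RNA in the Pnpla3 level was not tested.

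Among enzymes that interconvert retinol and retinal 1 of 11 tested genes rose and 0 fell. Dhrs4, a peroxisomal retinal reductase, rose from 113.6 ± 5.54 to 154.7 ± 19.0 CPM (n = 3 each, log2 0.45 ± 0.11, edgeR adjusted p = 0.0383), and it did not pass in any of the 6 analyses with 1 library left out (edgeR adjusted p = 0.0562 to 0.117) or on library size only (log2 0.17, edgeR adjusted p = 0.357). Rdh7, the most abundant dehydrogenase of the chromosome 10 cluster that holds Rdh16, was at 849.0 ± 107.0 and 1139 ± 75.9 CPM and did not pass (n = 3 each, log2 0.42 ± 0.14, edgeR adjusted p = 0.0829), while DESeq2 called it (log2 0.45, adjusted p = 0.00774). Of 5 tested retinal oxidising genes 2 rose. Aox3, an aldehyde oxidase, rose from 610.5 ± 80.4 to 1022 ± 52.1 CPM (n = 3 each, log2 0.74 ± 0.14, edgeR adjusted p = 0.0121), and Aldh8a1, an aldehyde dehydrogenase active on retinal, from 260.7 ± 41.7 to 393.3 ± 49.1 CPM (n = 3 each, log2 0.59 ± 0.15, edgeR adjusted p = 0.0384). Aox3 did not pass without CSAA replicate 1 or 2 (edgeR adjusted p = 0.0601 and 0.0515). Aldh8a1 did not pass without CSAA replicate 1, CSAA replicate 2, CDAA replicate 1 or CDAA replicate 2 (edgeR adjusted p = 0.132, 0.109, 0.0752 and 0.119), nor on library size only (log2 0.32, edgeR adjusted p = 0.108). Retsat, which saturates retinol to dihydroretinol, rose from 201.2 ± 24.3 to 466.6 ± 205.0 CPM (n = 3 each, log2 1.21 ± 0.29, edgeR adjusted p = 0.0285). Its values in CDAA replicates 1 to 3 were 294.0, 412.5 and 693.2 CPM, so the size rested in part on replicate 3, and without that library the log2 fold change was 0.81 (edgeR adjusted p = 0.0211). It did not pass without any 1 of the CSAA replicates or CDAA replicate 2 (edgeR adjusted p = 0.0600 to 0.108).

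Of 6 retinoic acid receptor genes 1 fell and 0 rose. Rara fell from 26.6 ± 3.40 to 16.1 ± 4.21 CPM (n = 3 each, log2 -0.72 ± 0.20, edgeR adjusted p = 0.0468) and with 1 library left out it passed in the analysis without CDAA replicate 2 alone (edgeR adjusted p = 0.0667 to 0.152 in the other 5). Rarg (log2 -0.81 ± 0.25, edgeR adjusted p = 0.0628) and Rarb (log2 -0.99 ± 0.43, edgeR adjusted p = 0.161) had negative estimates without overlap between the groups and did not pass, although DESeq2 called Rarg (adjusted p = 0.0305). The gene models of Rarb and of Top2b on the opposite strand overlap by 4624 bases. Top2b averaged 1060 reads per library, and Rarb had 11 to 86. The strand setting of the counts is not given in the sources used here, and the part of Top2b reads in the Rarb count was not tested. Rxra, the main RXR of hepatocytes, was at 445.5 ± 91.8 and 526.0 ± 52.4 CPM and did not pass (n = 3 each, log2 0.24 ± 0.17, edgeR adjusted p = 0.374), with -0.0352 on library size only. Whether RAR and RXR genes differ from each other was not tested. Of 3 tested genes listed as responsive to retinoic acid 1 fell and 0 rose. Rarres1 (log2 0.94 ± 0.65, edgeR adjusted p = 0.374) and Rarres2 (log2 0.12 ± 0.12, edgeR adjusted p = 0.560) had positive estimates and did not pass. Tgm2, tissue transglutaminase, which retinoic acid induces, fell from 163.3 ± 9.34 to 98.6 ± 7.10 CPM (n = 3 each, log2 -0.73 ± 0.10, edgeR adjusted p = 0.00403). Tgm2 passed in all 6 analyses with 1 library left out. Its gene model overlaps that of Rprd1b on the opposite strand. Rara and Tgm2 are also expressed in macrophages. Of 9 macrophage markers 7 fell and 0 rose, beside 10.5% and 4.25% of all tested genes, and the part of this in both genes was not tested.

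**Figure D4:**
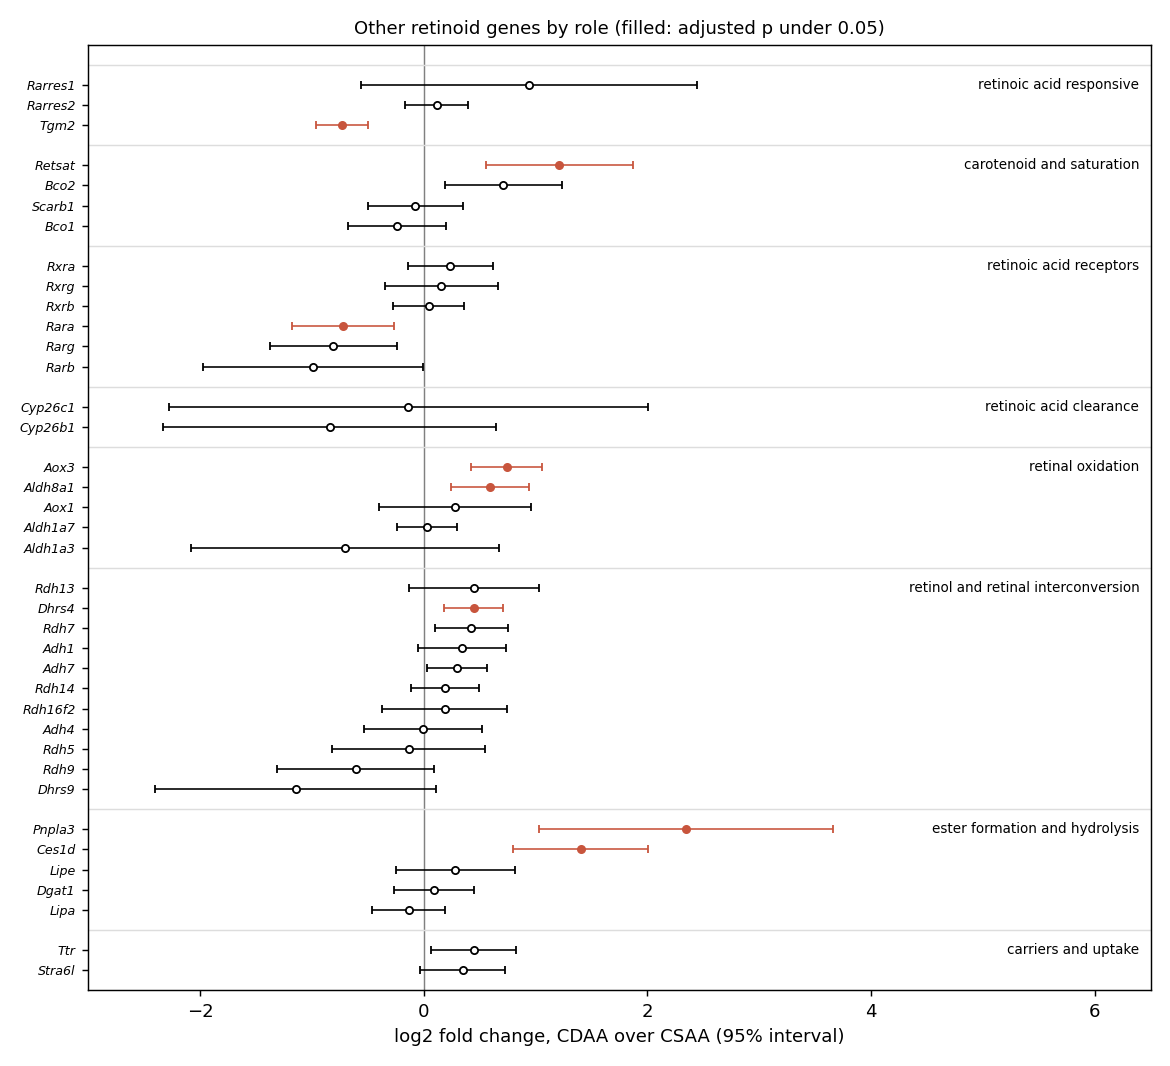
Log2 fold change (CDAA over CSAA, with 95% interval) of the 38 tested genes of the wider retinoid list, grouped by role, filled in red where the edgeR adjusted p was under 0.05. Red points to the right are Pnpla3, Ces1d, Retsat, Aox3, Aldh8a1 and Dhrs4, and those to the left Tgm2 and Rara.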

How the data were processed

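Liver RNA of 6 mice was sequenced, 3 per diet, from 3 ug of RNA each. Groups were taken from the labels. Each deposited file held read counts per gene, not normalised, and FPKM, per the file headers. FPKM equalled count over listed length and library total in 100% of values (relative tolerance 0.001) and was not used further. The submitters' processing notes list HTSeq 0.9.1, HISAT2 2.0.5, DESeq 1.30.0 and cutadapt 1.15, besides mm10 and mm9, with no role for any. How strand and multiply mapped reads were handled is not given in the sources used here.

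The test was run in edgeR 4.0.16 under R 4.3.3 (TMM, filterByExpr, quasi-likelihood test, diet as the only term, all 6 libraries, Benjamini-Hochberg adjustment over 12845 genes). The code was tested on simulated data. The standard error is the log2 fold change over the square root of F. On library size only, the median log2 fold change of tested genes moved by -0.28, so changes are relative to the TMM scale. A count of 3 corresponds to 0.148 to 0.228 CPM. Such limits cover counting error only. Nothing in the labels links replicate numbers across diets, so no pairing was used.

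The members and gene lists were chosen with earlier results of these data known. One item of the wider list is not reported here. Genes named are the 8 members, the called genes of each role of the wider list (up to 3 each way by smallest adjusted p), up to 2 called markers per list, and the 3 genes most like each member. Ttr, Stra6l, Stra6, Crabp1, Rdh7, Cyp26b1, Rarb, Rarg, Rxra, Rarres1, Rarres2, Reln, Ecm1, Des, Acta2, Tagln and Adipoq were named beside them after their values were seen. Promoter windows were matched by symbol. Alternatives were other scalings, filters, DESeq2 1.42.0, a replicate block and each library left out.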

Additional observations from a re-analysis of the deposited data

How the results depend on the processing

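Rdh11 passed in all 13 alternative analyses, and Lrat in 10 of 13, with log2 fold changes of -1.35 to -0.87. The count of members called higher was 3 with DESeq2 (Rdh11, Rbp4 and Rdh16), 2 with the replicate block (Rdh11 and Rdh16) and 1 in each analysis with 1 library left out. The count called lower ran from 0 to 2 with 1 library left out. In the wider list these analyses gave 0 to 6 genes higher and 1 to 3 lower. Over all genes 546 were higher and 1355 lower (28.7% and 71.3% of calls), against 137 and 2745 on library size only (4.75% and 95.2%), 1102 higher with DESeq2 and 293 higher with the replicate block. Deviations of same-numbered libraries from their group means correlated at 0.03, 0.14 and -0.11, and 1 of 3 CSAA libraries was most like its own number. With 3 libraries per diet, and deviations that sum to 0 within each, such values cannot decide whether the numbers pair the libraries. With the replicate block Rdh16 passed (edgeR adjusted p = 0.0202), and Dhrs4 and Aldh8a1 did not (0.0638 and 0.0687). Leaving out 1 library gave 76 to 688 higher and 568 to 1456 lower. Estimates changed sign on library size only for Dhrs3 (-0.0711), Rdh10 (-0.0475) and Rxra (-0.0352), and without CSAA replicate 2 for Aldh1a1 (-0.24 to 0.13 over the analyses with 1 library left out), and none of these passed. The log2 ratio of Lrat to stellate markers was -0.55 without Hgf and Ecm1, -1.06 relative to Des alone and -1.003 to -0.70 with 1 library left out. The causes were not tested. With 3 libraries per diet small changes cannot be told from none.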
